A study of Sus scrofa domesticus with 4 samples.

Results

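Genes of the immunoproteasome and of MHC class I antigen processing were followed on arrays that compared adiponectin-treated with untreated explants of porcine myometrium, the smooth muscle wall of the uterus. Probes were taken when their RefSeq accession belonged to pig PSMB8, PSMB9, PSMB10, TAP1, TAP2, TAPBP, B2M, SLA-1, SLA-2 or SLA-3. This gave 21 of the 43603 probes, for 7 of the 10 genes: 3 probes for PSMB8, 2 for PSMB9, 3 for PSMB10, 2 for TAP1, 2 for TAP2, 2 for B2M and 7 for SLA-3. No probe matched TAPBP, SLA-1 or SLA-2 by accession. The genes were chosen with their treated-over-untreated values known, so those values describe them and support no claim that they responded.

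Adiponectin is a hormone of fat tissue. The tissue came from 4 Large White x Polish Landrace gilts aged 7 to 8 months, on days 15 to 16 of gestation. Explants of 100 mg, 3 mm thick, rested in 2 ml of culture medium during a 2 h preincubation. Cultures of the treated group then received 10 µg/ml adiponectin for 24 h and those of the untreated group none, in duplicate in each of 4 experiments. Each of 4 Agilent 2-colour arrays held 1 RNA of each group. Treated RNA carried Cy5 on arrays 1 and 3 and Cy3 on arrays 2 and 4, by the dye fields of the labels, although the text of the labelling protocol names only the first orientation. No label ties an array to a gilt, and it is not given whether the paired RNAs shared an animal. The spread between arrays may therefore be partly technical. Arrays 1, 2 and 3 were on slide 1, and array 4 was on slide 2 with a scan of its own.

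The proteasome cuts proteins into peptides. Interferons, interferon gamma above all, raise PSMB8, PSMB9 and PSMB10, which replace the catalytic subunits PSMB5, PSMB6 and PSMB7 of newly built proteasomes. The peptides are carried into the endoplasmic reticulum by the TAP1 and TAP2 transporter, loaded with the help of TAPBP (tapasin) onto a class I heavy chain paired with beta-2-microglobulin (B2M), and shown to T cells at the cell surface. In pigs the classical heavy chains are SLA-1, SLA-2 and SLA-3. Around the time of implantation the pig conceptus secretes interferons, and interferon-induced genes, class I genes among them, are known to be active in the uterus of early pregnancy.

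All 21 probes were well above background in both channels on all 4 arrays, and no spot on any array was saturated. Over the whole array between 47.0% and 63.1% of spots were well above background in the treated channel and between 46.1% and 56.5% in the untreated channel. With 4 arrays, precision was limited: the 95% interval of a tested probe extended a median of 0.39 (log2) above and below its fitted change. Values below are log2 ratios of treated over untreated signal as the scanner software gave them, and a fitted change is their mean over both dye orientations with its moderated standard error (SE, n = 4 arrays).

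Across these genes the fitted changes lay mostly below 0, and none passed the test. Of the 21 probes 20 had a fitted change below 0, with a range from -0.50 to 0.06 and a median of -0.21, where 50.5% of all 22288 tested probes were below 0. limma called 0 of the 21, as it called 0 (0%) of all tested probes, with adjusted p-values between 0.859 and 0.989. At an unadjusted limma p under 0.05 there were 840 higher (3.77%) and 428 lower (1.92%) probes on the array, and among the 21 there were 0 higher and 3 lower, the 3 of PSMB8. With the brightest probe standing for each gene, the 7 genes had a median of -0.28 and all 7 were below 0, beside a median of -0.02 and 54.2% below 0 over 2144 named genes. The median of the 7 genes was -0.19 with another background correction and loess normalisation, and -0.12 without array 3. Probes of a gene share the RNA and the array, so they are not replicates of the treatment.

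**Figure D1:**
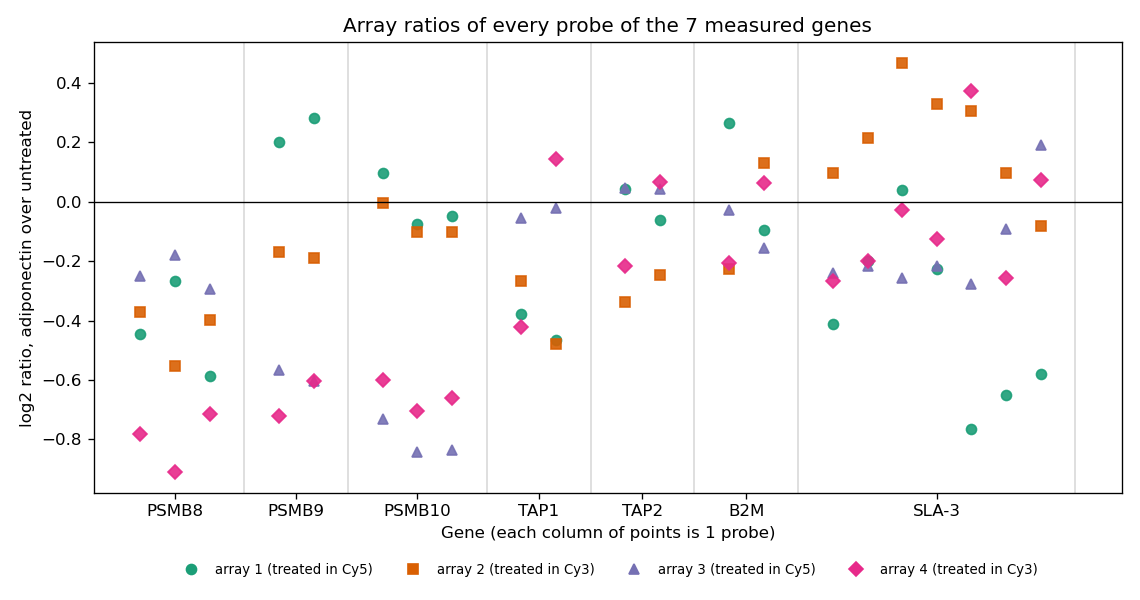
Log2 ratio of adiponectin-treated over untreated signal (vertical axis) for each of the 21 probes, grouped by gene along the horizontal axis, with 1 marker per array. All PSMB8 points lie below 0, while PSMB9 and PSMB10 lie between -0.84 and -0.57 on arrays 3 and 4 and between -0.19 and 0.28 on arrays 1 and 2.

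PSMB8, the immunoproteasome subunit that replaces PSMB5, was lower in the treated RNA on every array. Untreated signal at its brightest probe was 2873, 2595, 1817 and 1180 on arrays 1 to 4, and treated signal was 2109, 2005, 1527 and 687. The log2 ratios were -0.45, -0.37, -0.25 and -0.78. Array 4, the one on the other slide, was thus farthest from 0 and array 3 nearest. The fitted change was -0.46 ± 0.15 (SE, n = 4 arrays; 95% interval from -0.82 to -0.10), a 1.38-fold lower signal, and limma's adjusted p was 0.859. Another PSMB8 probe had ratios of -0.27, -0.55, -0.18 and -0.91, and the third had -0.59, -0.40, -0.29 and -0.71. Their fitted changes were -0.48 ± 0.14 and -0.50 ± 0.14, close to that of the brightest probe. After normexp and loess they stood at -0.34 and -0.45, and the brightest at -0.44. All 12 probe-by-array values were below 0, which makes 3 of the 6 probes of this group that were below 0 on all 4 arrays. Over the array 1384 of the 22288 tested probes (6.21%) were below 0 on all arrays and 1414 (6.34%) above 0, where this group had 0. Without array 4 the brightest probe stood at -0.36, and leaving out any other array left it between -0.56 and -0.41.

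PSMB9 and PSMB10, the subunits that replace PSMB6 and PSMB7, shared another pattern. The brightest PSMB9 probe had untreated signals of 9277, 9882, 9248 and 8618 and treated signals of 10665, 8782, 6245 and 5231 on arrays 1 to 4. Its log2 ratios were 0.20, -0.17, -0.57 and -0.72. At this probe the untreated signal differed less between arrays than the treated signal, while at the other PSMB9 probe the untreated signal ran from 7401 to 10003. Signals were not normalised between arrays and the control dye alternated, so they do not show which RNA moved. For PSMB10 the untreated signals were 12386, 14520, 19498 and 10240 and the treated signals 13260, 14472, 11757 and 6753, with log2 ratios of 0.10, -0.01, -0.73 and -0.60. Both genes were near or above 0 on arrays 1 and 2 and well below 0 on arrays 3 and 4, one of each dye orientation.

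The fitted change was -0.31 ± 0.19 for PSMB9 and -0.31 ± 0.20 for PSMB10 (SE, n = 4 arrays), and neither passed (limma adjusted p = 0.867 and 0.869). These values rested on arrays 3 and 4. Without array 3 they were -0.12 for PSMB9 and -0.10 for PSMB10, and without array 4 they were -0.18 and -0.16. Without array 1 they were -0.51 and -0.52, and without array 2 they were -0.45 and -0.46. When an array is left out, the one left alone in its orientation weighs as much as the other pair. The other PSMB9 probe stood at 0.28, -0.19, -0.60 and -0.60, and those of PSMB10 at -0.08, -0.10, -0.84 and -0.70 and at -0.05, -0.10, -0.83 and -0.66. All of them thus had the gap between arrays 1 and 2 and arrays 3 and 4. Within an array the SD between probes of a gene averaged 0.05 for PSMB9 and 0.07 for PSMB10, while the SD between arrays was 0.42 and 0.40.

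Of the transporter genes, TAP1 had a fitted change near those of PSMB9 and PSMB10 (-0.31 each), and TAP2 stood closer to 0. TAP1 had untreated signals of 1662, 2160, 1080 and 1380 on arrays 1 to 4 and treated signals of 1280, 1797, 1040 and 1031, with log2 ratios of -0.38, -0.27, -0.05 and -0.42. It was below 0 on all arrays, and its fitted change was -0.28 ± 0.14 (limma adjusted p = 0.859). With normexp background correction and loess the same probe stood at -0.13, and at 0.13 on array 4. The dimmer TAP1 probe, with untreated signals between 113 and 194, gave -0.47, -0.48, -0.02 and 0.14, and so differed from the brighter one on array 4.

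TAP2 had untreated signals of 354, 1107, 471 and 242 at its brighter probe and treated signals of 364, 877, 486 and 209, with log2 ratios of 0.04, -0.34, 0.05 and -0.22. The dimmer probe had ratios of -0.06, -0.25, 0.04 and 0.07, and neither had a shared direction. The fitted changes were -0.12 ± 0.13 and -0.05 ± 0.14. At the brighter TAP2 probe untreated signal differed 4.57-fold between the Cy5-labelled controls of arrays 2 and 4. This was a wider gap between arrays of 1 dye than at the brightest probe of the other 6 genes (1.00-fold to 2.20-fold). The dimmer TAP2 probe had a smaller gap, with untreated signals of 616 and 309 on these arrays.

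**Figure D2:**
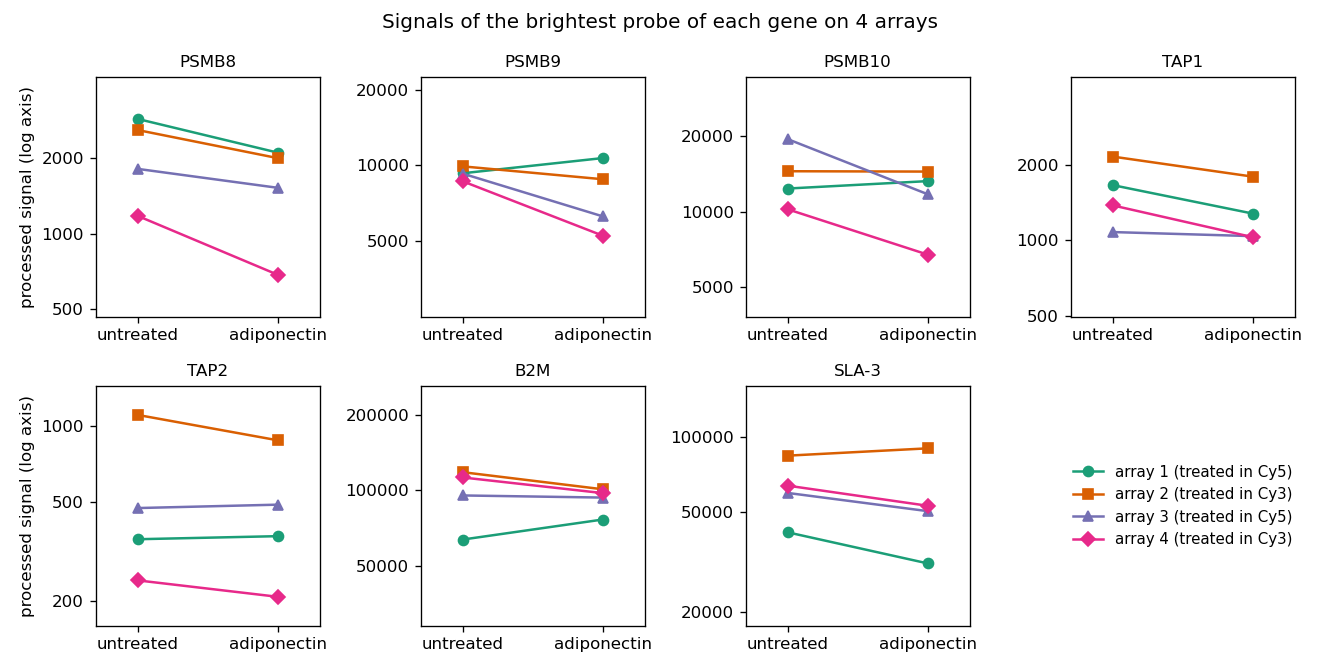
Processed signal in arbitrary units (vertical log axis, each panel spanning the same fold) of the brightest probe of each of 7 genes in untreated and adiponectin-treated RNA, with a line joining the 2 RNAs of an array. PSMB8 lines slope down on all 4 arrays, PSMB9 and PSMB10 lines slope down most on arrays 3 and 4, and B2M lines go both ways.

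B2M, the invariant light chain of class I molecules, gave strong signals, and its log2 ratios had no shared direction. At its brightest probe the untreated signal was 63625, 118106, 95386 and 112516 on arrays 1 to 4 and the treated signal 76467, 100952, 93541 and 97467. The log2 ratios were 0.27, -0.23, -0.03 and -0.21, and those of the other probe were -0.10, 0.13, -0.16 and 0.06. The probes thus had opposite signs on 3 of the 4 arrays. Their dye coefficients, Cy5 over Cy3, were 0.17 and -0.11, and their fitted changes were -0.05 ± 0.14 and -0.01 ± 0.13. The intervals ran from -0.39 to 0.29 and from -0.34 to 0.31. RefSeq lists a pair of B2M genes side by side in the pig, and the probes carry the accession of one of them.

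The SLA-3 probes covered the class I heavy chains with the widest spread between probes. Array values of the brightest probe were -0.41, 0.10, -0.24 and -0.27, at untreated signals of 41613, 84109, 59731 and 63864 and treated signals of 31282, 89950, 50537 and 53094. Its fitted change was -0.21 ± 0.14 (limma adjusted p = 0.869), and over the 7 probes the changes ran from -0.23 to 0.06, with 6 below 0. Their adjusted p-values by limma lay between 0.869 and 0.968. On array 1 the probes ranged from -0.76 to 0.04, on array 2 from -0.08 to 0.47, on array 3 from -0.28 to 0.19 and on array 4 from -0.27 to 0.37. The SD between probes within an array averaged 0.21, close to the 0.25 between arrays. Of the 28 probe-by-array values 18 were below 0, and no SLA-3 probe was below 0 on all 4 arrays. Pig class I heavy chain genes are close copies of each other, and the RefSeq table gives SLA-1 and SLA-7 as other names of SLA-3, so these probes may read more than 1 heavy chain gene.

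**Figure D3:**
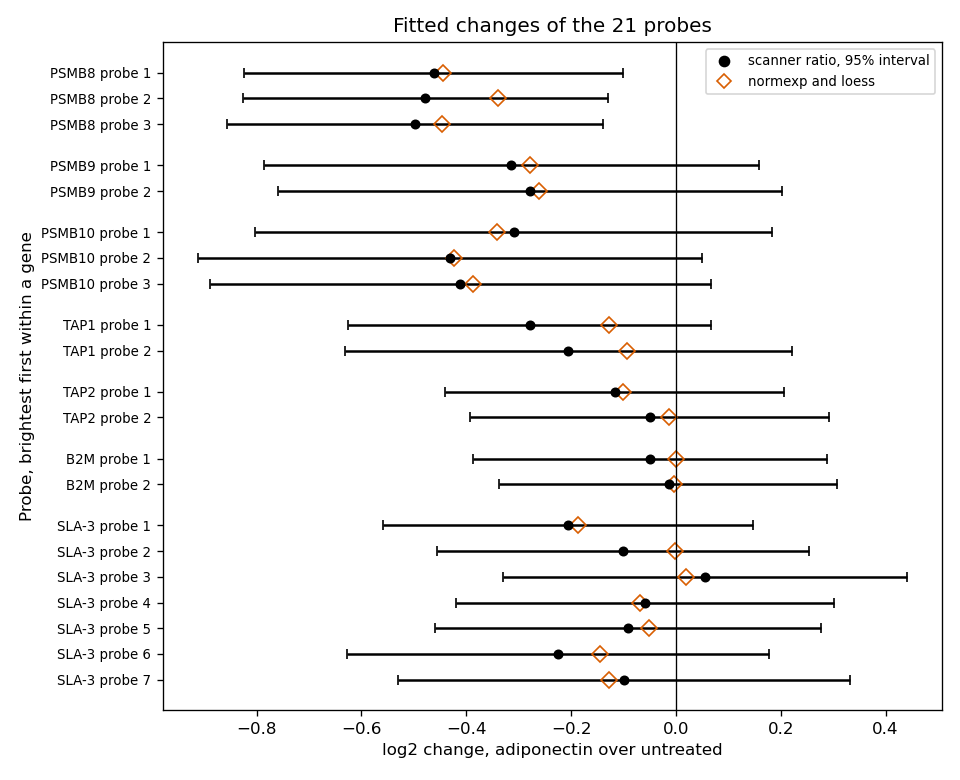
Fitted log2 change, adiponectin over untreated (horizontal axis), of each of the 21 probes (vertical axis, brightest first within a gene), with 95% intervals from the scanner ratios (black, n = 4 arrays) and the value after normexp and loess (open diamonds). PSMB8 changes lie between -0.50 and -0.46 and B2M changes between -0.05 and -0.01.

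By the RefSeq gene order of Sscrofa11.1 (taken for neighbours alone), TAP2, PSMB8, TAP1 and PSMB9 follow one another without another coding gene between them on chromosome 7. SLA-1, SLA-2 and SLA-3 are on the same chromosome, PSMB10 lies on chromosome 6 and B2M on chromosome 1. Among these neighbours the brightest probes of PSMB8 and TAP1 were both below 0 on every array by the scanner ratios. They differed by 0.21 (root mean square difference of the 4 array ratios), which made TAP1 the 14th nearest of 2143 named genes to PSMB8. This likeness leaned on array 4, where the same TAP1 probe stood at 0.13 after normexp and loess and the dimmer TAP1 probe at 0.14 by the scanner ratio. PSMB8 and TAP2 differed by 0.40, and PSMB9 and TAP1 by 0.42. PSMB9 was closer to PSMB10 (0.14) than to PSMB8 (0.38), its neighbour beyond TAP1. Of 2143 named genes those nearest to PSMB9 were IRF1 (0.10), SLA-DOA (0.11) and CATSPER1 (0.12), little apart, and PSMB10 was the 4th nearest. IRF1 is a transcription factor that drives class I and immunoproteasome genes. IRF1 stood at 0.05, -0.30, -0.59 and -0.72 on arrays 1 to 4. The genes nearest to PSMB10 were SLC4A4 (0.06), SLA-DOA (0.12) and LRRC71 (0.12). PSMB8 had other neighbours, ECH1 (0.09), NUDT2 (0.10) and TNFSF13 (0.11), and PSMB9 ranked only 214th by likeness to it. These rankings per subunit were chosen after the values were seen, and with 4 arrays they describe likeness alone. By the rule set for the group as a whole, the gene nearest to the median profile of the 7 genes was PSME2, a subunit of the proteasome activator PA28, at a difference of 0.05. PCK2 (0.08), XCR1 (0.085), DHDH (0.09) and NR4A2 (0.09) came next of 2137 genes compared.

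The standard proteasome was measured beside its inducible counterparts. PSMB6 stood at -0.22, -0.12, -0.01 and 0.00 on arrays 1 to 4, with a fitted change of -0.09 ± 0.13. Against it PSMB9 differed by 0.42, -0.05, -0.56 and -0.72, so the pair parted in opposite directions on array 1 and on arrays 3 and 4. PSMB7 stood at 0.06, -0.28, -0.33 and -0.25, with a fitted change of -0.20 ± 0.14, and PSMB10 differed from it by 0.04, 0.27, -0.40 and -0.36. PSMB5 had no tested probe, so PSMB8 could not be set beside the subunit it replaces.

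None of the 7 tested genes of 14 listed for the core particle passed, in either direction, and 6 of the 7 were below 0, with a median of -0.09 (PSMB4 at -0.23, PSMB7 at -0.20 and PSMB3 at -0.20). Of the regulatory particle, which unfolds substrates, 0 of 3 passed, at -0.15 for PSMD4, -0.12 for PSMC1 and -0.09 for PSMC5. Among 4 tested activator and assembly genes 0 passed. The PA28 subunits PSME2 and PSME1 stood at -0.26 ± 0.14 and -0.17 ± 0.14, each below 0 on all 4 arrays, and the assembly chaperone PSMG1 at 0.26.

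Genes that act on class I molecules after the transporter, or that control them, did not pass either. Of 4 tested loading and trimming genes 0 passed, with a median of -0.01 that was 0.02 after normexp and loess: the chaperone CALR stood at 0.22, the aminopeptidase LNPEP at -0.10 and the peptidase THOP1 at -0.01. Of 15 tested regulators and interferon signalling genes 0 passed, 10 were below 0 and the median was -0.11, or -0.05 with normexp and loess, -0.005 without array 3 and 0.03 without array 4. IRF1 was at -0.39 ± 0.17, the interferon receptor chain IFNAR2 at 0.29 and the kinase JAK1 at 0.21. NLRC5, the class I transactivator, stood at -0.12 ± 0.13. Among 6 tested class I-like genes 0 passed, with FCGRT, the neonatal Fc receptor that also pairs with B2M, at 0.39 ± 0.14, SLA-8 at -0.26 and SLA-5 at -0.10. Probes of the same gene could disagree. Those of FCGRT ran from -0.08 to 0.39 and those of THOP1 from -0.01 to 0.51. JAK1 probes ran from -0.07 to 0.21 and SLA-8 probes from -0.26 to -0.01.

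Of 19 tested interferon-induced effectors 0 passed, 10 were above and 9 below 0. The median was 0.10, and it turned on single arrays: -0.12 without array 1, -0.08 without array 2, 0.27 with 4 of 19 below 0 without array 3, and 0.24 with 6 below 0 without array 4. The antiviral protein RSAD2 stood at 0.65, 1.16, 0.11 and 0.69 on arrays 1 to 4, the RNA sensor IFIH1 at 0.71, 0.42, 0.23 and 0.24, and IFIT3 at 0.74, 0.65, -0.06 and 0.41. Fitted changes were 0.65 ± 0.17, 0.40 ± 0.15 and 0.44 ± 0.18, where the other probe of each gene gave 0.40, 0.19 and -0.01. On all 4 arrays RSAD2 and IFIH1 were thus above 0 where PSMB8 was below it. Another set, named here after its values were seen, had the array pattern of PSMB9 and PSMB10. GBP1, a GTPase, was at 0.07, -0.10, -1.29 and -0.98. The T cell attractants CXCL9 and CXCL10 were at 0.25, 0.37, -2.51 and -0.71 and at 0.93, 0.76, -1.49 and -1.14. Like IRF1, these genes are known to respond strongly to interferon gamma. IFNG itself was not well above background in either channel on any array.

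**Figure D4:**
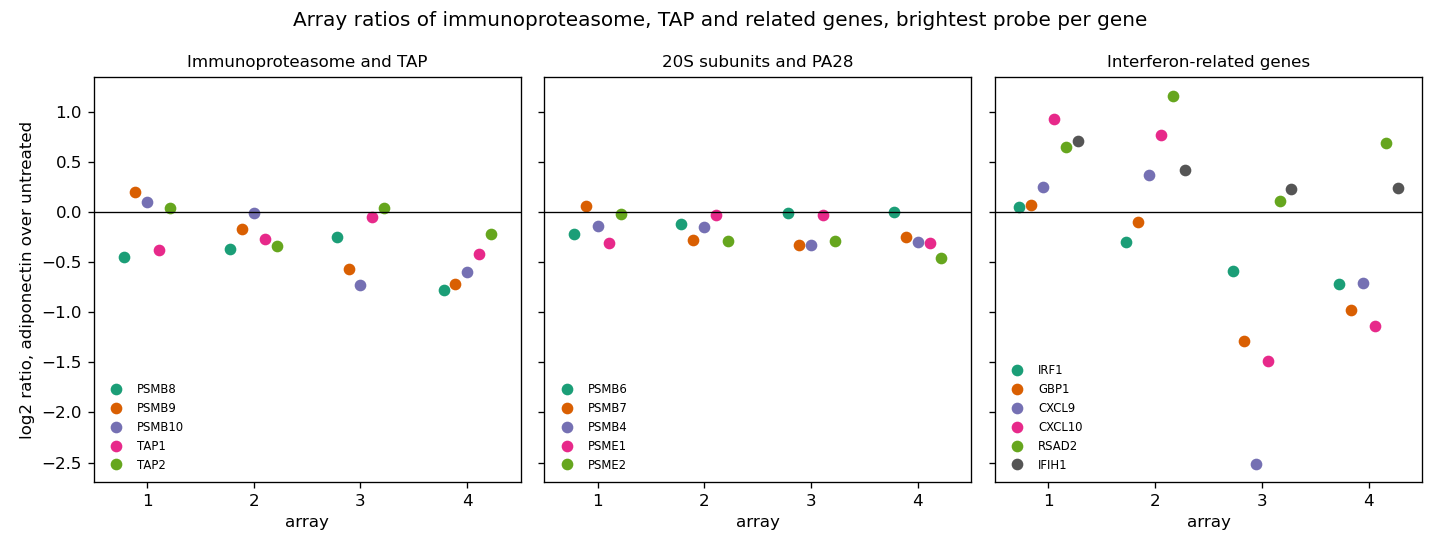
Log2 ratio of treated over untreated signal (vertical axis) on arrays 1 to 4 (horizontal axis, genes set side by side within an array) for the brightest probe of immunoproteasome and TAP genes, standard 20S and PA28 subunits, and interferon-related genes. IRF1, GBP1, CXCL9 and CXCL10 lie below -0.5 on arrays 3 and 4, as PSMB9 and PSMB10 do, while RSAD2 and IFIH1 lie above 0 on all 4 arrays.

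MHC class II genes, which present peptides from outside the cell, gave 0 of 8 tested genes past the threshold, with all 8 below 0 and a median of -0.215. SLA-DMB was at -0.31, SLA-DOA at -0.28 and SLA-DRB1 at -0.25. Without array 3 the median was -0.06 with 4 of 8 below 0, so that, as for PSMB9 and PSMB10, array 3 carried much of it.

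Cell type markers differed between treated and untreated RNA on the same arrays, and none passed the test. In tissue RNA, fewer cells of a type and less RNA per cell cannot be told apart. Defining smooth muscle genes were present: of 10 listed, 5 had a probe and all 5 were tested, with summed signals of 179555 to 362076 untreated and 199948 to 396835 treated. Their median log2 ratio was -0.66, -0.10, 0.95 and -0.16 on arrays 1 to 4. The 10 tested macrophage and monocyte genes of 14 listed had medians of 0.48, -0.20, 2.16 and 0.63, all 10 with a fitted change above 0, and their summed signals were 2340 to 6321 untreated and 2506 to 10680 treated. VSIG4 was at 1.20, CD163 at 1.09 and AIF1 at 0.65. The median of their fitted changes was 0.70, or 0.29 without array 3, 0.37 without array 4 and 1.15 without array 1. On array 3, then, the macrophage and smooth muscle medians were both at their highest and PSMB10 was at its lowest. PSMB8 did not follow PSMB10, as it was nearest to 0 on array 3 (-0.25), and the brightest PSMB9 probe was lowest on array 4 (-0.72). Lymphocyte genes were near the detection limit: 4 of 12 with a probe were tested, with summed signals of 223 to 336 untreated and 191 to 423 treated, and CD3D, CD8A and MS4A1 were not well above background on any array. The median change of the 4 was 0.33, or 0.07 after normexp and loess, and between 0.13 and 0.545 with 1 array left out. IL7R, the interleukin-7 receptor chain of lymphocytes, had the smallest unadjusted p of the list and was above 0 on all 4 arrays, at 2.02, 0.62, 2.50 and 2.94. Its fitted change was 2.02 ± 0.37 (SE, n = 4 arrays, limma adjusted p = 0.859). The other tested lymphocyte genes did not share this: CD3G stood at 0.445 with 2 arrays below 0, NKG7 at 0.22 and LCK at -0.21. Endometrial epithelium genes (5 tested of 9 listed) had medians of -0.09, 1.24, -0.70 and 0.98 and summed signals of 245 to 2110 untreated and 247 to 4876 treated. These medians alternated with the dye orientation, below 0 on arrays 1 and 3 and above 0 on arrays 2 and 4. The median change of the epithelial genes was 0.43, or 0.14 after normexp and loess, and between 0.17 without array 1 and 0.69 without array 3. Endothelial genes (5 of 10) had a median change of 0.14 with sums of 6985 to 9694 and 7427 to 9533. It was 0.31 without array 2, -0.06 without array 3 and -0.19 without array 4. Stromal genes (5 of 8) had a median of -0.10 with sums of 77324 to 128168 and 86567 to 93702. It was -0.16 without array 1, 0.00 without array 2 and 0.02 without array 3. Of the conceptus list IL1B2 and IL1B were tested (2 of 7), at 0.30 and 0.565, with sums of 668 to 3714 and 1170 to 3907. Their median of 0.43 turned to -0.36 when array 3 was left out and to 0.21 when array 4 was, and stood at 1.23 without array 1 and at 0.66 without array 2. CDX2 was not well above background on any array. The part of cell composition in the values of PSMB8, PSMB9 and PSMB10 was not tested.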

How the data were processed

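RNA of treated and untreated explants was measured on 4 arrays of 43603 probes each. Per the file headers, Agilent Feature Extraction 10.7.3.1 made the deposited log10 ratios of Cy5 over Cy3 from background-subtracted, dye-normalised signals, and the deposited files also hold those processed intensities and the median spot and background intensities. Between 18.1% and 28.9% of ratios were exactly 0. The deposited series table gives log2 ratios with column medians of -0.10, 0.13, -0.14 and 0.16. For bright probes it equalled the scanner ratio turned to treated over untreated (slope 1.00 on each array, at least 99.97% within 0.01). How it treats dim probes is not given in the sources used here.

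Log10 ratios were put on the log2 scale, turned to treated over untreated by the dye fields, and averaged over spots of a probe. A probe was tested where 3 or more arrays had the treated or the untreated channel well above background (22288 probes). limma 3.58.1 (R 4.3.3) fitted a treatment and a dye coefficient per probe, two-sided, with Benjamini-Hochberg adjustment at 0.05 over all tested probes. The fit was checked on simulated data. Genes were named by unversioned RefSeq accession through a table of assembly Sscrofa11.1: 6700 of the 7125 probes with an accession matched, for 3029 symbols. Each gene is represented by its brightest probe (mean processed signal). Levels are processed signals. They served to rank probes by brightness and were summed over marker lists, and were not read as relative abundance of different genes.

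The members and the lists were chosen with earlier results of these data known. Besides the members, the text names from each pathway list the 3 tested genes with the smallest unadjusted p and the 5 genes nearest to the members' median profile. PSMB6, NLRC5, GBP1, CXCL9, CXCL10 and the genes nearest to single subunits fall outside this rule, and of the marker lists it names only some genes. Alternatives were another background correction with loess, the series table, centring, no dye coefficient, other filters, zeros left out, the mean over probes, and each array left out. A planned search for promoter motifs was not run and no sequence is printed, because no promoter, protein or probe sequences were at hand. Which class I heavy chain gene each SLA-3 probe reads could therefore not be checked.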

Additional observations from a re-analysis of the deposited data

Results flagged for a closer look

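One array lay far from the other 3 at 1 of the 21 probes, where chance gives about 1.05. It was an SLA-3 probe with an untreated signal of 42009 on array 1. Its log2 ratio was 0.21 on array 2 and between -0.22 and -0.20 on the other arrays. The brightest SLA-3 probe stood at 0.10 on array 2, also its highest value.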

How the results depend on the processing

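The count of called probes over the array was 0 under 7 alternatives of processing, with 1002 to 3180 probes at an unadjusted limma p under 0.05. Leaving out 1 array gave between 0 and 13 calls. The 13 calls, all higher, came without array 3 (smallest limma adjusted p = 0.0215), and none was a probe of these genes. The cause was not tested. The median of the 7 genes lay between -0.32 and -0.12 with 1 array left out and between -0.28 and -0.19 under the processing alternatives. All 84 recomputed values of single genes moved by less than 1 SD of the gene's array values. This is no measure of stability. In this balanced design leaving out 1 array cannot move a value that far, and the filters and the dye coefficient cannot move it at all. Of the 21 probes 13 kept 1 sign throughout, among them all of PSMB8, PSMB9, PSMB10 and TAP1. The 8 that did not were both of B2M, 1 of TAP2 and 5 of SLA-3. Without the dye coefficient no fitted change moved, because the orientations were balanced.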
